A study of Mus musculus with 6 samples.

Results

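Dkk3, its chromosomal neighbour Usp47 and the genes that carry Dickkopf signals were read in 6 RNA libraries labelled as embryonic mouse brain. They are 10 of the 24346 gene symbols listed in each file: the ligands Dkk1, Dkk2, Dkk3 and Dkk4, the related Dkkl1, the receptors Kremen1, Kremen2, Lrp5 and Lrp6, and Usp47. The set was chosen from the comparison described here, because Dkk3 and Usp47 were higher in the libraries labelled DKO, and the other 8 symbols were added as relatives and receptors of Dkk3. The difference of Dkk3 and Usp47 between the groups is therefore given as a description without a test.

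The 3 libraries labelled DKO come from mice labelled miR-124a-1/2 DKO, taken here as a double knockout of a pair of loci that make the neuronal microRNA miR-124a. The 3 libraries labelled control come from mice labelled miR-124a-1+/-, so that both groups carry a miR-124a-1 mutation and neither is wild type. All mice are labelled embryonic day 17.5, and the tissue is given as brain. The labels name no Cre driver, strain or litter, and the file headers mark the DKO libraries with the letters CKO, which the labels do not explain. Nothing states that the brains of a group came from separate litters, so p-values measure the spread between these libraries only.

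Dickkopf proteins are secreted, cysteine-rich regulators of Wnt signalling. Dkk1, Dkk2 and Dkk4 bind the Wnt co-receptors Lrp5 and Lrp6, and with the transmembrane receptors Kremen1 and Kremen2 they keep these co-receptors from acting with Frizzled proteins. Dkk3 is the divergent member of the family, and its relation to Lrp5, Lrp6 and Wnt signalling is less settled. In the retina Dkk3 is known from progenitors and Müller glia, and its regulatory sequence has been used to drive Cre recombinase there. Dkkl1 is a Dkk3-related protein known from testis. Usp47 is a ubiquitin-specific protease that removes ubiquitin from DNA polymerase beta and binds the ubiquitin ligase subunit beta-TrCP.

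Because the groups are labelled by the loss of a microRNA, the 3' untranslated regions (UTRs) of the 10 genes were searched for words that pair with the miR-124-3p seed. For each gene the transcript with the longest 3' UTR in GENCODE M21 (GRCm38) was taken. The word GTGCCTT, which pairs with microRNA bases 2 to 8, was in 0 of the 10 UTRs, against 13.3% of 19500 genes with a row and a UTR. The shorter word TGCCTT, contained in the first and paired with bases 2 to 7, was in 7 of the 10, against 43.8% of the same genes. No other words for miR-124-3p were searched. The UTRs of the 10 genes ran from 71 to 4310 bases, and no allowance was made for length. The Dkk3 UTR, 2194 bases long, held 2 copies, at bases 335 and 1064, and the Usp47 UTR, 1542 bases long, held 0. Both Dkk3 copies are shown with their surroundings because Dkk3 has the larger difference between the groups. They lie on the minus strand at chr7:112117864-112117892 and chr7:112117135-112117163, with the word in capitals.
Dkk3 copy nearer the stop codon: cagggaggaggatgccTGCCTTgcagacg
Dkk3 copy farther from the stop codon: cacatttgtataagcaTGCCTTtctcctg
A word of this kind is a match of letters and not a measured site.

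Promoter windows of 300 bases (250 before to 50 after the annotated start, RefSeq, GRCm38.p6) were held for 5 of the 10 genes: Dkk1, Dkk2, Dkkl1, Kremen2 and Usp47. They were searched on both strands for the TCF/LEF words AACAAAG or ATCAAAG or TACAAAG or TTCAAAG, through which beta-catenin is known to reach its targets. Of 32851 windows of this length 16.9% held at least 1 of them. Dkk1 held 2 words and was the 1 gene of the 5 with any. The Usp47 window is shown as the promoter of a gene that differed between the groups, and the Dkk1 window to show the words, in capitals. Usp47 starts on the plus strand (chr7:112023256-112023555) and Dkk1 on the minus strand (chr19:30549447-30549746).
Usp47: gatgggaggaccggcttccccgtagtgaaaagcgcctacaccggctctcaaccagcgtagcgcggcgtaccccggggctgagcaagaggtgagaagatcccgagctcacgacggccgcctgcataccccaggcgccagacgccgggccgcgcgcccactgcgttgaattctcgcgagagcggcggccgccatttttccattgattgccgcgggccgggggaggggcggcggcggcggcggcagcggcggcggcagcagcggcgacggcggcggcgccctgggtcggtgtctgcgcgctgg
Dkk1: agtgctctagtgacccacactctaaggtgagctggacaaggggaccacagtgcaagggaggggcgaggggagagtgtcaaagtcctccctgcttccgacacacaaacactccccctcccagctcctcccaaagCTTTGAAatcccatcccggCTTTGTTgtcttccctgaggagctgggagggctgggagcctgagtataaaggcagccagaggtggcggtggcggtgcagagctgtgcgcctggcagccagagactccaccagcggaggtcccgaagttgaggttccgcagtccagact
The Usp47 window is 73.0% G+C with 45 CG pairs, against 9 in that of Dkk1 and a median of 7 over all windows, and 1.93% of windows have as many as Usp47.

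The values are FPKM, which counts fragments relative to transcript length and library size, so levels of different genes may be set side by side. Their sums were 402832 to 436299 FPKM per library. Steps between low values put the depth of the libraries, relative to DKO replicate 1, at 1.24 and 1.13 for DKO replicates 2 and 3 and at 0.956, 1.05 and 1.02 for control replicates 1, 2 and 3. Rows of short RNAs took up 6.36% of the sum in control replicate 3 and 1.76% to 3.13% in the other libraries. Markers were set beside the labelled tissue and age in both groups. The rod photoreceptor genes Sag and Gnat1 lay at 2841 to 3594 and 2544 to 2861 FPKM. Of 8 markers of cortical and forebrain neurons, Emx1 is listed at 0 throughout and 4 averaged 1 FPKM or more, with Fezf2 the highest at 6.66 to 9.08 FPKM. Of 6 markers of dividing progenitors, Mki67, Top2a, Ccnb1 and Cdk1 lay below 0.438 FPKM in every library, Mcm2 at 1.62 to 2.58 and Pcna at 45.2 to 58.5 FPKM. Which tissue and age the libraries come from was not settled, and groups are named here by their labels only.

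Dkk3 was the most abundant of the 10 genes and was higher in the libraries labelled DKO. It measured 416, 450.3 and 474 FPKM in DKO replicates 1 to 3, and 228, 240.5 and 233 FPKM in control replicates 1 to 3. Every DKO library lay above every control library, and the lowest DKO value was 1.73 times the highest control value. The group means were 447 ± 29.2 and 234 ± 6.15 FPKM (SD, n = 3 each), a ratio of 1.91. On the log2(FPKM + 1) scale the difference was 0.93 with a standard error of 0.06. Its mean level over the 6 libraries ranked 134 of the 24346 rows.

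Usp47 was higher in the same libraries by a smaller factor. It measured 58.8, 58.5 and 61.2 FPKM in DKO replicates 1 to 3, and 42.9, 41.7 and 43.1 FPKM in control replicates 1 to 3. The groups lay apart here too, with the lowest DKO value 1.36 times the highest control value. The means were 59.5 ± 1.47 and 42.6 ± 0.777 FPKM (SD, n = 3 each), a ratio of 1.40 and a log2 difference of 0.47 with a standard error of 0.04. In FPKM the DKO mean exceeded the control mean by 213 for Dkk3 and by 16.9 for Usp47. In bulk RNA a change in the number of cells that express a gene and a change in RNA per cell cannot be told apart. The labels do not say whether any mouse carried a transgene with Dkk3 or Usp47 sequence, and in FPKM per gene symbol RNA from such a copy and from the gene itself cannot be told apart.

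**Figure D1:**
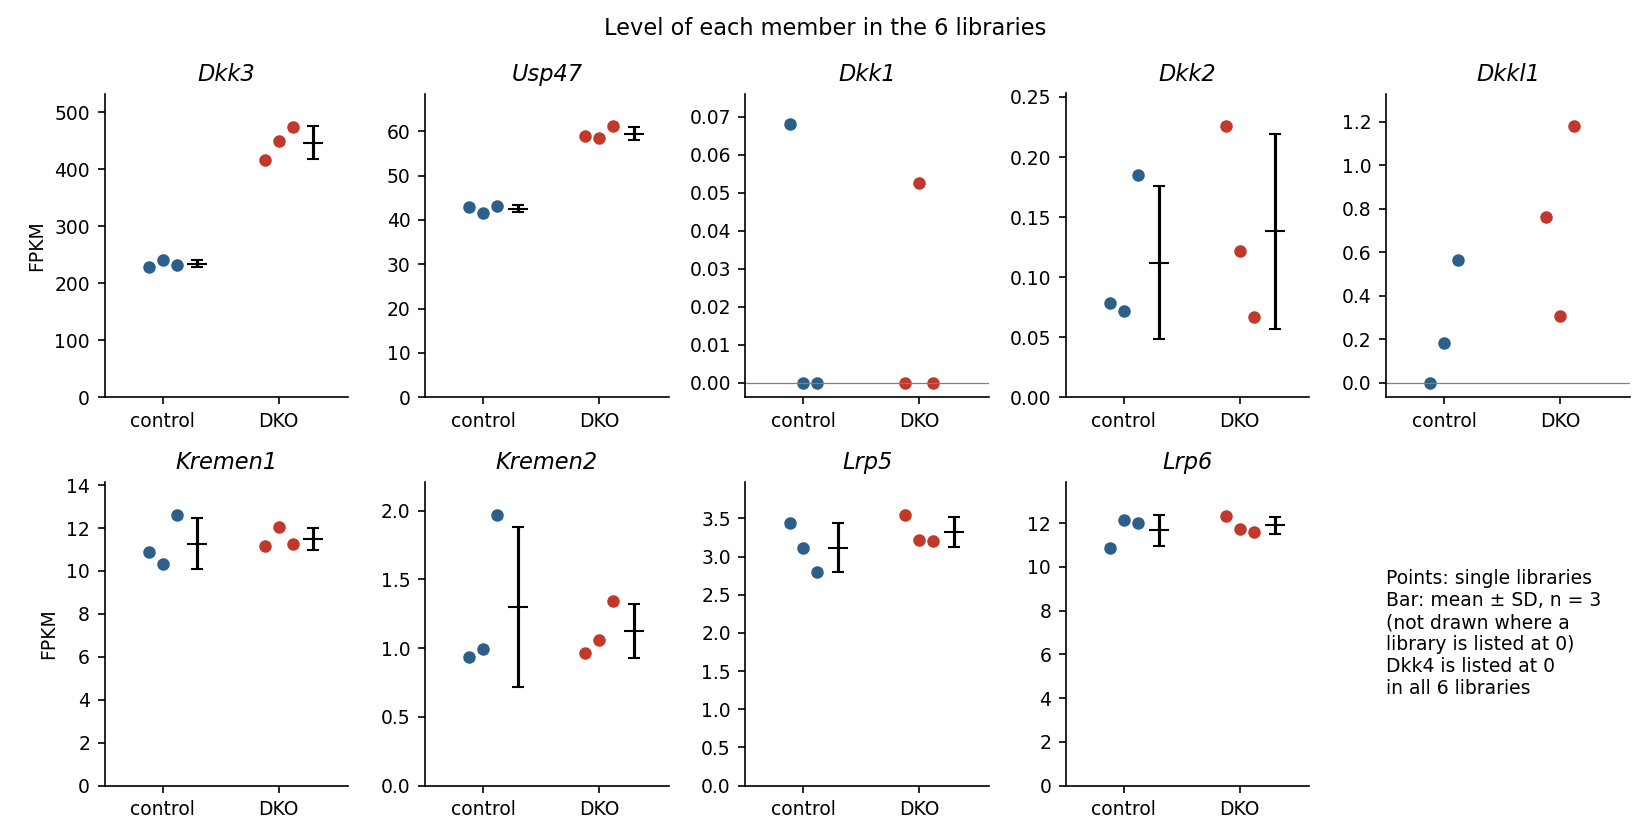
FPKM of each gene (vertical axes, linear, a separate scale per gene) in the 3 control libraries (blue) and the 3 DKO libraries (red), with the group mean and SD beside the points where no library is listed at 0. Dkk3 and Usp47 are the panels in which all DKO points lie above all control points, 416 to 474 against 228 to 240.5 FPKM for Dkk3 and 58.5 to 61.2 against 41.7 to 43.1 FPKM for Usp47.

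Ratios within single libraries do not depend on the scaling between libraries. The ratio of Dkk3 to Usp47 was 7.07, 7.70 and 7.75 in the DKO libraries and 5.32, 5.77 and 5.40 in the control libraries. Parva, an actin-linked adhesion protein encoded 268 kb beyond Dkk3, served as a local reference. The ratio of Dkk3 to Parva was 15.7 to 18.6 in the DKO libraries and 9.29 to 9.40 in the control libraries. The ratio of Usp47 to Parva was 2.22 to 2.40 in the DKO libraries and 1.61 to 1.75 in the control libraries. For all 3 ratios the groups lay apart. Each ratio is built on genes chosen for their difference between the groups, so this separation supports nothing further.

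Across the 13215 rows tested with limma, 3 passed an adjusted p of 0.05 (Benjamini-Hochberg), or 0.0227%. Dkk3 and Usp47 are 2 of these 3, which is how they were chosen, so this count says nothing further about them. Usp47 no longer passed in 8 of 16 alternative analyses: without a trend in eBayes, with the replicate block and without each of the 6 libraries. Among all tested rows, 6.96% had every DKO library above every control library and 6.95% the reverse. Of the 10 genes 6 reached the mean of 1 FPKM needed for the test, and Dkk1, Dkk2, Dkk4 and Dkkl1 did not.

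The other Dickkopf ligands were at or near 0 in both groups. Dkk1 is listed at 0.0525 FPKM in DKO replicate 2 and 0.0680 FPKM in control replicate 1 and at 0 in the other 4 libraries. Dkk4 is listed at 0 in all 6 libraries. Dkk2 measured 0.226, 0.122 and 0.0666 FPKM in DKO replicates 1 to 3 and 0.0788, 0.0720 and 0.185 FPKM in control replicates 1 to 3, and the groups overlapped. Dkkl1 measured 0.763, 0.308 and 1.18 FPKM in the DKO libraries and 0, 0.182 and 0.564 FPKM in the control libraries. Its 2 highest values were both in DKO libraries, but DKO replicate 2 lay below control replicate 3.

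These low values stand for a handful of fragments. When each library's values are multiplied by its relative depth and by 1 factor per gene, the smallest whole numbers that reproduce all 6 Dkk1 values to within 0.03 of a fragment are 1 fragment in each of the 2 libraries with a value. For Dkk2 they are 6, 4 and 2 in the DKO libraries and 2, 2 and 5 in the control libraries. For Dkkl1 they are 4, 2 and 7 against 0, 1 and 3, or 13 fragments against 4 in all. Such small numbers carry a large counting error, and no difference was tested in these ligands. The same numbers ran from 5220 to 13333 fragments for Dkk3, where whole numbers of this size are less certain, while for Usp47 no set of whole numbers was found.

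The Kremen receptors did not separate the groups. Kremen1 measured 11.1, 12.1 and 11.2 FPKM in DKO replicates 1 to 3 and 10.9, 10.3 and 12.6 FPKM in control replicates 1 to 3. The control libraries spanned the whole range of the DKO libraries, and the log2 difference was 0.03 with a 95% confidence interval of -0.17 to 0.22. It turned to -0.0059 without DKO replicate 2 and to -0.030 without control replicate 2. Kremen2 measured 0.967, 1.06 and 1.34 FPKM in the DKO libraries and 0.939, 0.991 and 1.97 FPKM in the control libraries, from 13 to 29 fragments per library. Control replicate 3 was the highest of the 6. The Kremen2 log2 difference was -0.09 (95% confidence interval -0.53 to 0.34), and it turned to 0.11 without control replicate 3.

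The co-receptors Lrp5 and Lrp6, through which Wnt signals reach beta-catenin, had overlapping groups as well. Lrp5 measured 3.55, 3.21 and 3.21 FPKM in DKO replicates 1 to 3 and 3.44, 3.12 and 2.79 FPKM in control replicates 1 to 3. Lrp6 measured 12.3, 11.8 and 11.6 FPKM in the DKO libraries and 10.9, 12.2 and 12.03 FPKM in the control libraries. The log2 differences were 0.07 for Lrp5 (95% confidence interval -0.16 to 0.31) and 0.02 for Lrp6 (-0.13 to 0.18), and that of Lrp6 turned to -0.022 without control replicate 1. The adjusted p of Kremen1, Kremen2, Lrp5 and Lrp6 was 0.909 to 0.961 (limma, Benjamini-Hochberg over all tested rows).

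In order of mean level the 10 genes ran from Dkk3 at 340.4 FPKM over Usp47 at 51.0 to Lrp6 at 11.8 and Kremen1 at 11.4, then Lrp5 at 3.22 and Kremen2 at 1.21, with Dkkl1, Dkk2, Dkk1 and Dkk4 below 1 FPKM. Lrp6 and Kremen1 overlapped, with ranges of 10.9 to 12.3 and 10.3 to 12.6 FPKM, and so did Kremen2, with a range of 0.939 to 1.97 FPKM, and Dkkl1, with a range of 0 to 1.18 FPKM. The ranges of Dkkl1 and Dkk2 overlapped, as did those of Dkk2 and Dkk1, and Dkk1 shares values of 0 with Dkk4. The most abundant secreted ligand of the family in these libraries was thus Dkk3, and the 3 ligands known to bind Lrp5 and Lrp6 were the lowest of the 10 genes.

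**Figure D2:**
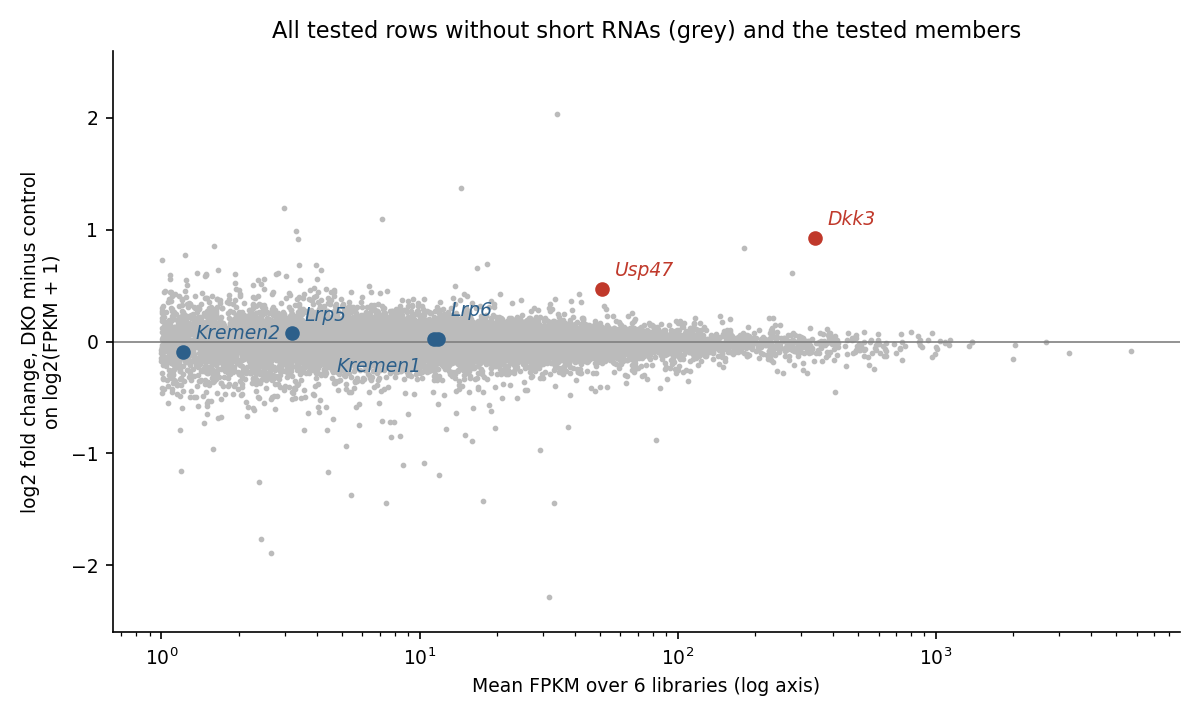
Mean FPKM over the 6 libraries (horizontal, log axis) and log2 difference DKO minus control on the log2(FPKM + 1) scale (vertical) for 13163 tested rows without short RNAs (grey points), with Dkk3 and Usp47 in red and Kremen1, Kremen2, Lrp5 and Lrp6 in blue. Dkk3 (0.93) and Usp47 (0.47), both chosen for this difference, lie at or beyond the upper edge of the grey points of like level. Single other rows also lie there, and the 4 receptors lie near 0.

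Usp47 and Dkk3 are neighbours that point at each other. In GENCODE M21 (GRCm38) Usp47 runs on the plus strand of chromosome 7 from 112023504 to 112111661, and Dkk3 on the minus strand from 112116017 to 112159057. Their 3' ends face each other across 4355 bases, and together they span 135554 bases. The window of 1 Mb on each side holds 26 annotated genes, the pair included, of which 9 are protein-coding, 11 have a row and 9 were tested.

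The 7 other tested genes of the window had smaller differences between the groups. Usp47 and Dkk3 were chosen for theirs, so this contrast supports nothing further. Of all 13215 tested rows, 67 had a log2 difference at or above that of Usp47, itself included. At or above that of Dkk3 there were 30, itself included. On the Usp47 side, Galnt18, an enzyme that starts O-glycosylation, ends 244 kb away. It measured 13.5, 14.2 and 13.7 FPKM in the DKO libraries and 12.1, 12.9 and 12.2 FPKM in the control libraries, so its groups lay apart, with a log2 difference of 0.14. Beyond it lie 1700012D14Rik (0.17), the translation factor Eif4g2 (-0.05) and the Paf1 complex subunit Ctr9 (0.08, groups apart). On the Dkk3 side, the actin-oxidising enzyme Mical2 begins 66.8 kb away. It measured 4.93, 5.68 and 5.55 FPKM in the DKO libraries and 5.37, 5.92 and 5.91 FPKM in the control libraries, with overlapping groups and a log2 difference of -0.08. Parva (0.06) and the transcription factor Tead1 (0.04) follow.

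The log2 differences of these 7 genes ran from -0.08 to 0.17, and 0 of them passed in limma (adjusted p 0.621 to 0.943, Benjamini-Hochberg over all tested rows). Groups lay apart in 2 of the 7, both on the higher side, beside 6.96% of all tested rows on that side. Galnt18 was the 1 of the 7 with an unadjusted limma p under 0.05. Over the whole of chromosome 7, 0 of the 961 tested genes other than the pair passed, and 7.70% had an unadjusted p under 0.05. For all tested rows these shares were 3.52% on the higher and 4.36% on the lower side. Genes of chromosome 7 other than the pair had a median log2 difference of -0.0063, against -0.0016 for all tested rows.

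**Figure D3:**
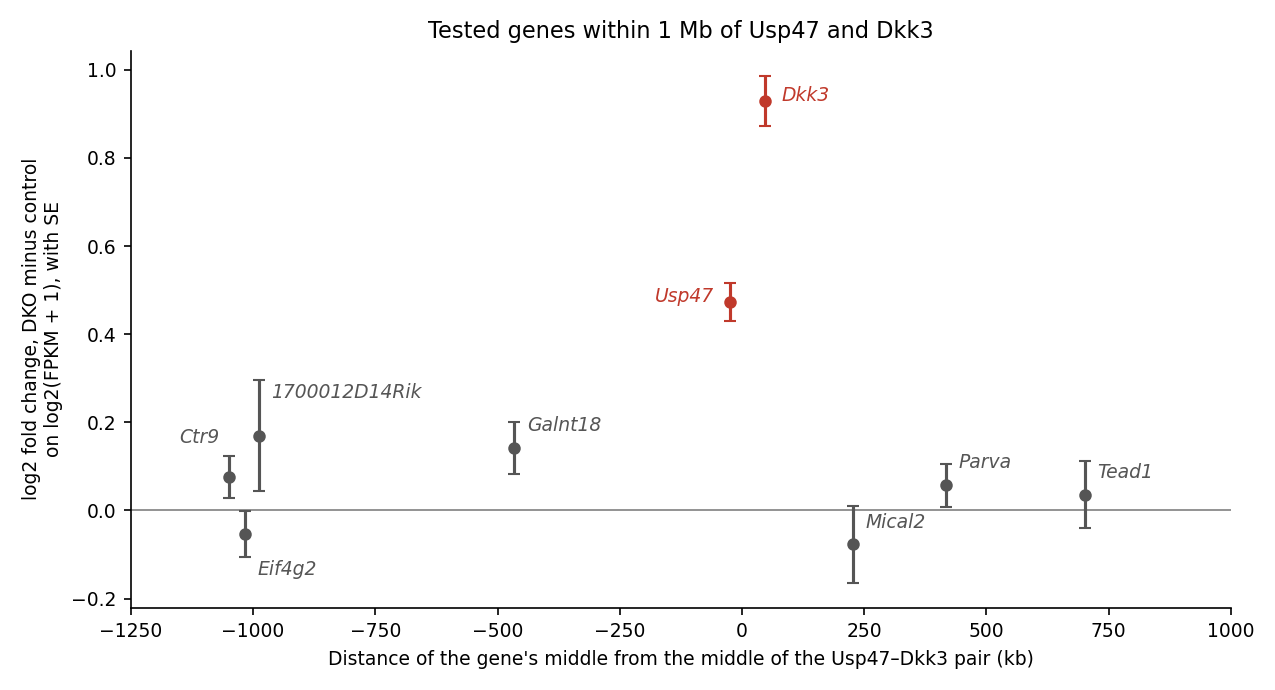
Log2 difference DKO minus control on the log2(FPKM + 1) scale with its standard error (vertical) for the 9 tested genes of the window, by the distance of each gene's middle from the middle of the pair in kb (horizontal). Usp47 (0.47) and Dkk3 (0.93) stand above the 7 other genes, which lie between -0.08 and 0.17. The pair was chosen for its difference, so its place above them follows from the choice.

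Genes of the wider Wnt pathway were read from lists of ligands, receptors, antagonists, R-spondin partners, intracellular components and beta-catenin targets. They were 84 genes in all without the 10 above. Of these 49 were tested, 24 lay above 0 and 25 below, and 0 passed (limma, Benjamini-Hochberg over all tested rows). At an unadjusted limma p under 0.05 there were 2 higher (4.08%) and 4 lower genes (8.16%), beside 3.52% and 4.36% of all tested rows. Groups lay apart in 5 genes on the higher side (10.2%) and 6 on the lower side (12.2%), beside 6.96% and 6.95%. Their median log2 difference was -0.00042, against -0.0016 for all tested rows.

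Of the 19 Wnt ligands only Wnt2b, Wnt5a and Wnt5b reached the level for the test, and all 3 lay below 0. Wnt2b, a ligand known from the ciliary margin and pigment epithelium of the eye, measured 5.31 to 5.64 FPKM in the DKO libraries and 6.39 to 6.96 FPKM in the control libraries. Wnt5b, a ligand mostly tied to beta-catenin-independent signalling, measured 1.34 to 1.74 against 1.92 to 2.18 FPKM. The groups lay apart in both, with log2 differences of -0.26 and -0.28 and adjusted p of 0.492 and 0.612 (limma, Benjamini-Hochberg). They are the 2 of smallest p among the 3. Of all tested rows, 6.95% had groups apart on the lower side.

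Among 10 tested Frizzled and other Wnt receptors, 3 lay above 0 and 7 below. The 2 of smallest p were Fzd6, at 2.04 to 3.02 against 3.31 to 3.71 FPKM, and Fzd10, at 3.79 to 4.65 against 4.43 to 6.03 FPKM. The groups lay apart for Fzd6 and overlapped for Fzd10, and the adjusted p was 0.604 and 0.653 (limma, Benjamini-Hochberg).

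Other Wnt antagonists act on Wnt proteins or on Lrp5 and Lrp6 by routes of their own. Of 4 tested, 1 lay above 0 and 3 below. Frzb, a Wnt-binding protein of the Sfrp family, measured 9.03 to 10.7 FPKM in the DKO libraries and 10.8 to 14.1 FPKM in the control libraries, so its groups lay apart, with a log2 difference of -0.32 and an adjusted p of 0.555 (limma, Benjamini-Hochberg). Sostdc1, which binds Lrp5 and Lrp6 and also BMP ligands, had overlapping ranges of 0.940 to 2.07 and 1.55 to 2.59 FPKM. Dkk3, at 228 FPKM or more in every library, was above all 11 genes of this list. Their highest value was 14.3 FPKM, for the membrane-bound Apcdd1.

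Of 5 tested genes for R-spondins, Lgr receptors and the ligases they regulate, 4 lay above 0 and 1 below, and the groups overlapped in all 5. Rspo4 measured 0.916 to 2.02 FPKM in the DKO libraries and 0.874 to 0.960 FPKM in the control libraries, and Lgr5 8.73 to 9.61 against 9.58 to 10.3 FPKM.

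Inside the cell, 24 of 25 components were tested, with 15 above 0 and 9 below. The abundant ones were Ctnnb1, which encodes beta-catenin, at 159 ± 2.96 and 162 ± 3.78 FPKM (SD, n = 3 each), the kinases Csnk1a1 at 96.3 ± 1.15 and 101 ± 3.07 and Gsk3a at 59.8 ± 4.30 and 61.5 ± 3.84, and the scaffold Apc at 58.6 ± 1.51 and 54.6 ± 1.30, with the DKO value first. The 2 of smallest p were Pygo1, a co-activator of beta-catenin, with 8.53 to 10.7 against 7.22 to 7.72 FPKM, and Apc, with 57.4 to 60.3 against 53.2 to 55.8 FPKM. The groups lay apart in both, and the adjusted p was 0.572 and 0.629 (limma, Benjamini-Hochberg). In the whole list groups lay apart in 3 of 24 genes on the higher side (12.5%) and 2 on the lower (8.33%). For all tested rows these shares were 6.96% and 6.95%. Of 8 tested target genes 4 lay above 0 and 4 below, 0 had an unadjusted p under 0.05, and the 2 of smallest p were Lgr5 and Tnfrsf19 (log2 differences -0.12 and 0.15).

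Genes tied to Usp47 by family or function were read in 2 lists. In a list of its paralogue Usp7, the beta-TrCP genes Btrc and Fbxw11 and the substrate Polb, the log2 differences ran from -0.04 to 0.10. Polb, the DNA polymerase of base excision repair, measured 52.3 to 57.0 FPKM in the DKO libraries and 44.9 to 55.3 FPKM in the control libraries, and Fbxw11 23.6 to 24.6 against 24.3 to 25.1 FPKM. The groups overlapped in both. Of 43 other tested genes whose symbol is Usp and a number, nearly all ubiquitin-specific proteases but with the GTPase-activating protein Usp6nl among them, 24 lay above 0 and 19 below, within -0.14 and 0.13, and 0 passed (limma, Benjamini-Hochberg). At an unadjusted p under 0.05 there was 1 on each side, or 2.33%, beside 3.52% of all tested rows on the higher and 4.36% on the lower side. These were Usp11, at 31.8 to 33.4 against 29.6 to 30.9 FPKM, and Usp33, at 70.9 to 76.3 against 76.8 to 79.7 FPKM. Usp18, a protease that removes the ubiquitin-like protein Isg15, did not reach the level for the test. It lay at 0.0682 to 0.0844 FPKM in the DKO libraries and 0.333 to 0.484 FPKM in the control libraries, with the groups apart. It is named here after its values were seen. Values this low stand for few fragments and carry a large counting error, and no difference was tested in Usp18. The others above 50 FPKM were Usp22, a subunit of the SAGA complex, at 53.9 ± 1.17 against 50.6 ± 0.792 FPKM, and Usp19 at 59.5 ± 2.87 against 57.5 ± 2.94 FPKM (SD, n = 3 each). The log2 difference of Usp47 was 0.47. It was chosen for this value, so its place beyond the other Usp genes supports nothing further.

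**Figure D4:**
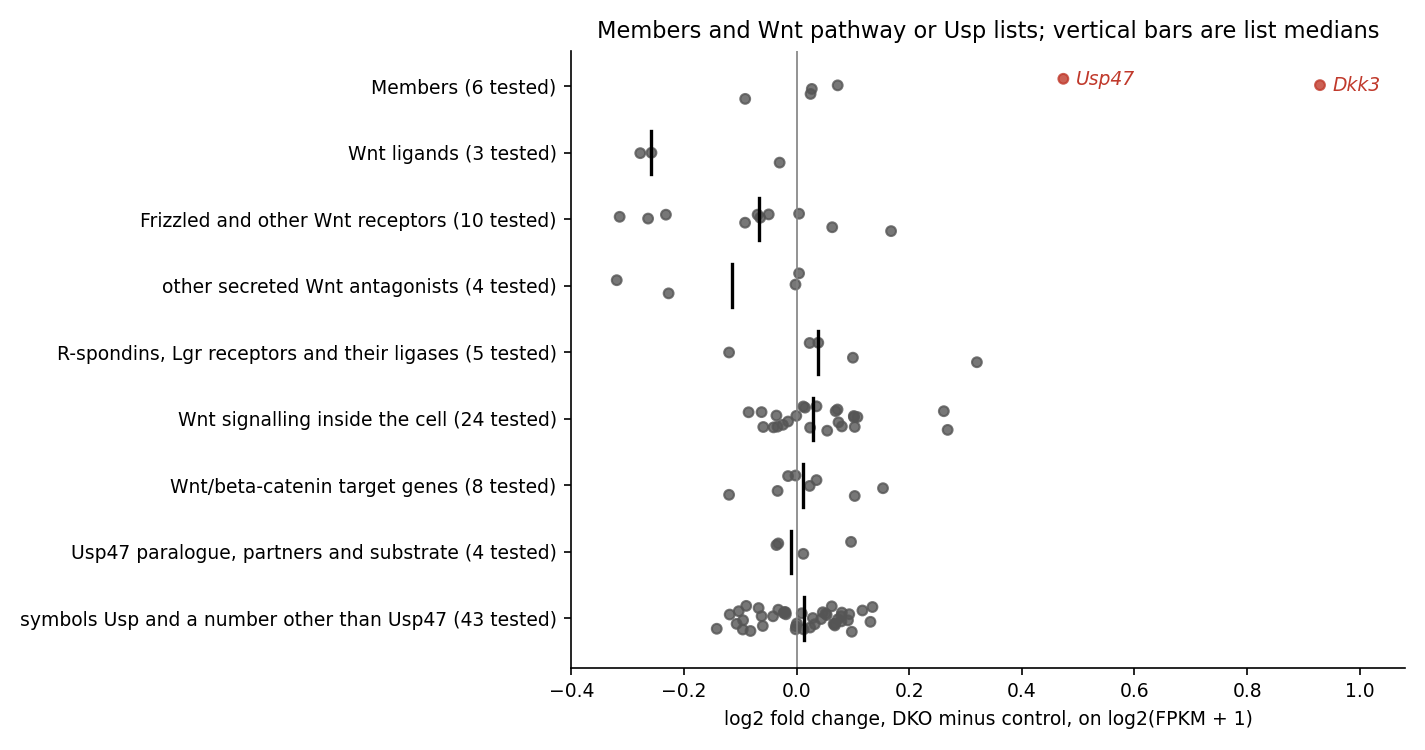
Log2 difference DKO minus control on the log2(FPKM + 1) scale (horizontal) for the 6 tested genes of the set and for the tested genes of the Wnt and Usp lists (rows), 1 point per gene, with the median of each list as a vertical bar. Dkk3 and Usp47 (red) lie beyond every other point, the highest of which is Rspo4 at 0.32. Both were chosen for this difference, so their place follows from the choice.

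Markers of the cells in which Dkk3 is known were set beside its difference. All 11 Müller glia markers were tested, with 6 above 0 and 5 below and a summed level of 2308 to 2472 FPKM in the DKO libraries and 2299.9 to 2412 FPKM in the control libraries. Glul, the glutamine synthetase of these cells, had a log2 difference of 0.07 and Rlbp1, a retinaldehyde-binding protein, 0.03. Vim, an intermediate filament gene, was the 1 marker of the 11 with an unadjusted limma p under 0.05, at 103 to 116 against 121 to 140.2 FPKM. The summed levels overlapped between the groups. Glul alone lay at 893 to 1070 FPKM, so the sums mostly follow a few abundant genes and do not count cells. The part of Müller glia in the difference of Dkk3 was not tested.

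Summed markers of some retinal neurons also lay apart between the groups. Over all tested rows, 3.52% were higher and 4.36% lower at an unadjusted limma p under 0.05. Groups lay apart in 6.96% of all tested rows on the higher and 6.95% on the lower side. Among single markers they lay apart on the higher side in 6 of 8 amacrine markers. On the lower side they lay apart in 5 of 7 ganglion cell, 2 of 6 cone, 3 of 7 bipolar and 1 of 7 rod markers. Of 8 amacrine markers 7 lay above 0 and 6 had an unadjusted limma p under 0.05, and their sum was 459 to 475 FPKM in the DKO libraries and 403 to 427 FPKM in the control libraries. Of 7 ganglion cell markers 6 lay below 0 and 3 had an unadjusted p under 0.05, with sums of 598 to 620 against 649 to 699 FPKM. Of 6 cone markers all lay below 0 and 3 had an unadjusted p under 0.05, with sums of 600.2 to 661 against 663 to 740.3 FPKM. Of 7 bipolar markers 5 lay below 0 and 2 had an unadjusted p under 0.05, with sums of 515 to 530.3 against 546 to 556 FPKM. All 7 rod markers lay below 0, 1 with an unadjusted p under 0.05, and their sums overlapped at 9558 to 10332 against 9916 to 10795 FPKM. None of the markers of these 5 neuron types is listed at 0 throughout, and 0 passed after adjustment (limma, Benjamini-Hochberg, smallest adjusted p 0.196). The cone sums of the groups came as close as 661 and 663 FPKM. All these sums mostly follow the more abundant genes and do not count cells. The part of these neuron types in the differences of Dkk3 and Usp47 was not tested.

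The rows whose profile over the 6 libraries was most like that of Dkk3 were found by the Euclidean distance between log2(FPKM + 1) values centred on each row's mean. Among the nearest were Pla2g4e, a cytosolic phospholipase (distance 0.234), the gene model 9430065F17Rik (0.352), the neurokinin B precursor Tac2 (0.399) and the calcium-binding protein Casq1 (0.517), against a median of 1.18 over all tested rows. They measured between 0.909 and 26.6 FPKM in single libraries, so Dkk3 was far more abundant than any of them. Nearest to Usp47 were Cpne5 (0.143), the calcium release channel Ryr3 (0.149), AI593442 (0.156), the receptor phosphatase Ptprk (0.178) and Chchd5 (0.195), against a median of 0.632. All 9 of these rows had every DKO library above every control library, a likeness that follows from the way they were found.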

How the data were processed

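RNA of 6 libraries was extracted with TRIzol and prepared with a stranded mRNA kit, per the labels' protocols. The files the authors deposited, 1 per library, hold FPKM per gene symbol, per the file headers. Per the submitters' processing notes, TopHat2 2.1.1, Bowtie2, Cuffdiff 2.2.1 and mm10 were used. The annotation is not given in the sources used here, and neither are strand setting and further scaling.

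Testing was limited to rows averaging 1 FPKM or more over all libraries. It used limma 3.58.1 (R 4.3.3, eBayes with a trend) on log2(FPKM + 1), DKO minus control, with Benjamini-Hochberg adjustment over 13215 rows. This scale understates changes of low genes. The script was tested on simulated data. The 10 genes and all lists were chosen with earlier results of these data known. Named genes are the 10, of each list those past the threshold or the 2 of smallest p and those above 50 FPKM, all tested neighbours within 1 Mb, and the 5 nearest profiles of Dkk3 and of Usp47, of which 1 is not reported here. Apcdd1, Cyfip2, Usp18 and the markers were named with their values known. Precision rests on 3 libraries a group. Relative depth is the most frequent ratio between rows under 0.3 FPKM. Python 3.11.15 with pandas 2.3.3 was used otherwise. The alternatives were 15 planned (pseudocounts, filters, scalings, variance models, a replicate block, leaving out each library) and 1 added after seeing the data (without short RNA rows).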

Additional observations from a re-analysis of the deposited data

How the results depend on the processing

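Dkk3 kept its direction and size in all 16 alternatives, with log2 differences of 0.89 to 0.98, and so did Usp47, with 0.45 to 0.49. These are the values that chose both genes and support nothing further. Usp47 would not have been chosen in 8 of the 16: without a trend in eBayes, with the replicate block and without each of the 6 libraries. Of all tested rows, 3 passed, against 1 (Dkk3) in eBayes without a trend and 1 to 4 in fits without 1 library, the lowest being 1 (Dkk3) without control replicate 2. For these losses the cause was not tested. With the replicate block 2 passed (Dkk3 and Cyfip2). Across genes, deviations from the group means had correlations of 0.072, 0.0063 and 0.10 between libraries of equal number. Between libraries of unequal number they ran from -0.12 to 0.036. All were small, though 0.10 and 0.072, both between libraries of equal number, were the largest. Whether the numbers mark pairs was not settled, and the reported fit has no replicate block. The 4 receptors were called in none of the alternatives that tested them. Their direction turned without single libraries: Kremen1 to -0.0059 without DKO replicate 2 and -0.030 without control replicate 2, Kremen2 to 0.11 without control replicate 3 (lowest -0.20 without control replicate 1), and Lrp6 to -0.022 without control replicate 1 (highest 0.052 without control replicate 2). None of the pathway or Usp lists had a called gene in any alternative run. Kremen2 and Lrp5 could not be fitted with a mean of at least 5 FPKM. Dkk1, Dkk2, Dkk4 and Dkkl1 are limited by depth, at 0 to 7 fragments a library.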
